A study of Mus musculus with 48 samples.

Results

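The genes described here carry glucose through glycolysis and on to pyruvate or lactate in skeletal muscle, together with the transporters that bring glucose in and move lactate and pyruvate. They are 33 gene symbols chosen by name and role and not by a threshold on any value, although earlier results of these data were known when they were chosen: hexokinases, phosphofructokinases and the PFKFB enzymes that set fructose 2,6-bisphosphate, the enzymes from hexose phosphate to pyruvate, the glycerol phosphate and lactate dehydrogenases, glucose transporters and their regulator *Tbc1d4*, lactate and pyruvate carriers, and 2 subunits of pyruvate dehydrogenase. These symbols matched 34 of the 56748 gene records in the tables, because *Aldoa* stands on 2 records. Of the 34 records, 33 passed the filter on low counts and were tested, and *Aldoc*, the aldolase of brain, did not pass.

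The libraries are 48 tibialis anterior muscles, a fast-twitch muscle of the mouse shin, 1 per male mouse. The labels and methods give their age as 39 to 55 weeks, and another passage of the study's text gives a younger age for the same experiment. Mice were WT or FoxP1SkmKO (homozygous for a floxed *Foxp1* allele, with ACTA1-Cre acting in skeletal muscle fibers). Their pancreas was injected with either KPC cells, a murine pancreatic cancer line (KPC mice), or sterile saline alone (control mice). Muscles were taken in constant darkness at 6 circadian times (CT) spaced by 4 h from CT18 to CT38, where CT18 was midnight and CT26 was 8 in the morning of the earlier light cycle, with 2 mice for each of the 24 combinations. Nothing tells more about how the mice of a combination relate to each other, so p-values measure the spread between these mice. WT is labelled C57BL/6J in the sample records and floxed without Cre in the series record. Total counts on genes ran from 14480867 to 20787784 per library. Fast-fiber markers summed to between 60029 and 82592 FPKM in every library and slow-fiber markers to between 16.7 and 52.7 FPKM, and 2 FoxP1SkmKO libraries carried liver RNA (5 liver markers summed to 63.3 FPKM in a control at CT22 and to 185 FPKM in a KPC mouse at CT18). *Foxp1* itself did not separate the genotypes: it had 0.430, 0.615 and 0.971 FPKM (lowest, median and highest of 12) in WT control mice and 0.430, 0.585 and 0.642 FPKM in FoxP1SkmKO control mice. In KPC mice it had 0.454, 0.636 and 0.757 FPKM in WT and 0.419, 0.531 and 0.653 FPKM in FoxP1SkmKO. The medians were thus lower in FoxP1SkmKO with and without tumors, while the ranges overlapped. The labels were used as given. In whole muscle, fewer cells of a type and less RNA per cell cannot be told apart.

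Glucose enters muscle fibers through GLUT4 (*Slc2a4*), which insulin and contraction bring to the surface, and hexokinase 2 (*Hk2*) traps it as glucose 6-phosphate. Phosphofructokinase is the committed step and is activated by fructose 2,6-bisphosphate, which the PFKFB enzymes make and remove. Pyruvate then either becomes lactate, which leaves the cell through monocarboxylate carriers, or enters mitochondria through the MPC carrier for pyruvate dehydrogenase, and the muscle clock is known to act on several of these steps.

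A first look at sequence concerned the clock's own DNA motif. CLOCK and BMAL1 bind the E-box CACGTG, and ACGTG is its shorter core, which is also shared by hypoxia-inducible factors and lies inside every E-box. In windows from 250 bases before to 50 after each annotated start (RefSeq, GRCm38.p6, a different build from the mm39 of the expression tables), 31 of the 33 symbols had a window, and they had 50 windows in all. *Slc2a4* and *Gpd1* had no window and were not searched. Searched on both strands, CACGTG was present in 5 of these 50 windows (10%), against 7.15% of all 32851 windows, and ACGTG in 21 of 50 (42.0%), against 19.6% of all. The forkhead motif GTAAACA was in 1 window, that of *Aldoc* (3.65% of all windows had it), and the D-box TTATGTAA was in 0 (0.938% of all). Several windows belong to 1 gene and overlap, so these shares are a description only. The 100 bases before the start are shown for the 2 genes with the clearest daily rhythm below, *Hk2* and *Pfkfb3* (the second of its 2 windows), and for the lactate exporter *Slc16a3*, called lower in both a KPC and a genotype comparison. Capitals mark ACGTG, read as CACGT on the other strand, in *Hk2* and *Slc16a3* and the whole E-box in *Pfkfb3*.

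Hk2 (chr6:82774455-82774554, minus strand): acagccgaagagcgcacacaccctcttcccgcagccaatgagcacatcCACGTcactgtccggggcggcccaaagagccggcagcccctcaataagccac
Pfkfb3 (chr2:11502091-11502190, minus strand): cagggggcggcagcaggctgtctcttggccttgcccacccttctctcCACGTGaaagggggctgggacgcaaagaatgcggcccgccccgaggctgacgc
Slc16a3 (chr11:120948967-120949066, plus strand): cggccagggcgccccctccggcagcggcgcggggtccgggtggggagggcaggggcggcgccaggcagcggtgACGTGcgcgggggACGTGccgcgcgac

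The *Hk2* match starts at position -52 from the annotated start, with another outside the stretch shown at -226, the *Pfkfb3* E-box at -53, and the *Slc16a3* matches at -27 and -14. *Ldha* had 2 E-boxes, at -145 and -48, and *Pfkm*, *Slc16a1* and *Pfkfb2* had 1 each. *Pfkfb4*, *Pfkfb1*, *Pdha1* and *Pgam2*, all described below, had neither motif in these windows.

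FPKM, counts scaled by gene length and library depth, allow levels of different genes to be compared, and the members' levels spanned a very wide range (the plot of all members by mouse). *Aldoa*, the muscle aldolase, was highest at 5222 ± 388 FPKM (SD, n = 48 over all groups), followed by the muscle enolase *Eno3* at 3430 ± 262, the muscle phosphoglycerate mutase *Pgam2* at 1990 ± 277 and the muscle phosphofructokinase *Pfkm* at 1383 ± 87.6. *Eno3* and *Aldoa* do not overlap in any 2 mice, and 1 WT control mouse, with 3046 FPKM of *Pgam2*, reached the range of *Eno3* (lowest 2879 FPKM). *Ldha* (869 ± 61.5), *Pkm* (840 ± 57.2) and *Tpi1* (773 ± 66.9) followed within each other's spread. Together the 34 records took 3.92% to 5.17% of all counts in a library, and *Aldoa* alone took 35.3% of the counts of the group.

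In each pair of isozymes the muscle form exceeded the ubiquitous one by a wide margin. The glucose transporter *Slc2a4* had 189 ± 11.1 FPKM against 2.91 ± 0.454 for *Slc2a1* (GLUT1), *Hk2* had 85.9 ± 11.8 against 1.2 ± 0.187 for *Hk1*, and *Pfkm* stood against 1.59 ± 0.221 for *Pfkl* and 0.441 ± 0.0963 for *Pfkp*. *Pgam2* stood against 5.76 ± 0.885 for *Pgam1* and *Eno3* against 16.3 ± 2.08 for *Eno1*, with no overlap between mice in any of these pairs. For lactate, the exporter *Slc16a3* (MCT4) had 82.2 ± 10.7 FPKM and the importer *Slc16a1* (MCT1) 16.1 ± 1.76, while *Ldhb*, the lactate dehydrogenase of oxidative tissue, had 61.9 ± 8.25. *Aldoc* was at 0.0519 FPKM, with at most 10 counts in a library.

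**Figure D1:**
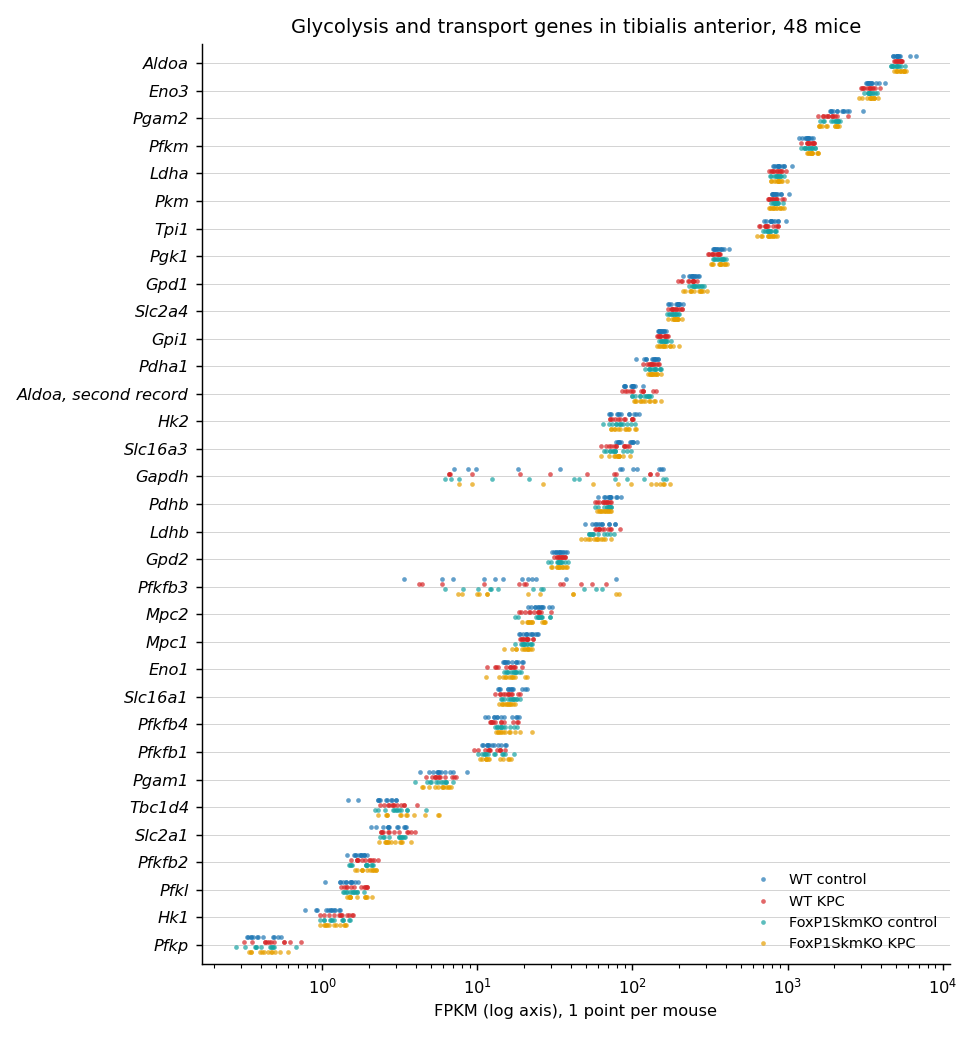
FPKM of 33 of the 34 records (all but *Aldoc*) on a log axis, with 1 point per mouse and 1 color and line of points per genotype and condition. *Gapdh* and *Pfkfb3* run across a 27.9-fold and a 24.6-fold range, and the colors overlap for every gene.

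Among mice of all groups, *Slc2a4* was the steadiest member, from 168 to 211 FPKM (1.26-fold), and 31 records other than *Gapdh*, *Pfkfb3* and *Aldoc* spanned between 1.26-fold and 3.82-fold from the lowest to the highest mouse. *Gapdh*, the glyceraldehyde phosphate dehydrogenase often used as a reference gene, ran from 6.21 to 173 FPKM, a 27.9-fold range. Its ranges in the 4 groups overlapped almost whole, from 7.06 to 158 FPKM in WT control and from 7.66 to 173 FPKM in FoxP1SkmKO KPC mice. The 2 mice of a single group differed by 3.65-fold in the median of 24 groups and by over 5-fold in 10 of them. Its neighbors in the pathway did not vary in this way (*Tpi1* 1.54-fold, *Pgk1* 1.37-fold), and the gene that correlated most with it over the 48 libraries, among 15063 genes, had a correlation of 0.540 in absolute value. *Gapdh* has many near-identical copies in the genome, and its counts are given as uncertain. Of the records named for it, *Gapdhs* reached at most 1.53 FPKM in a library and 3 processed pseudogenes at most 0.477 FPKM, and whether shared reads have a part in the spread was not tested. Its averaged differences had SEs of 0.57 on the log2 scale and passed no test (KPC in WT 0.11, adjusted p = 0.963, KPC in FoxP1SkmKO 0.51, adjusted p = 0.793).

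The second *Aldoa* record, ENSMUSG00000114515 (799 bases, mm39 chromosome 7, 126399962 to 126408280, minus strand), is also uncertain. GENCODE release M39 of the mouse annotation lists the same identifier as Gm57854, whose span in that release runs into the main *Aldoa* record on the same strand. The deposited span of the second record overlaps 3 genes of the other strand in that release. In the tables it lies next to *Aldoa* (126394406 to 126399923, minus strand), and whether the counting used strand is not given in the sources used here. It had 111 ± 16.2 FPKM, far under the main *Aldoa* record, and it is called the second *Aldoa* record below.

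In WT muscle, 3 members were lower in KPC than in control mice, averaged over the 6 circadian times, and 0 were higher. These were *Pgam2*, the lactate exporter *Slc16a3* and *Pdhb*, the beta subunit of the pyruvate dehydrogenase E1 enzyme, which together make up 9.09% of the 33 tested, against 1.79% of all 15637 genes called in either direction, 0.627% called lower and 1.16% called higher. All 3 changes were small, the largest being 14.3%. The median log2 fold change of the 33 members was -0.02, against 0.00 for all genes.

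*Pgam2* had 1873, 2167 and 3046 FPKM (lowest, median and highest of 12) in WT control mice and 1570, 1881 and 2452 FPKM in WT KPC mice. The ranges overlap, and the highest KPC value, at CT38, lay above 10 of the 12 control values. KPC mice were lower by 14.3% (log2 fold change -0.22 ± 0.05 SE, adjusted p = 0.0207) and lower at 5 of the 6 times. In FoxP1SkmKO mice the same change was -0.07 ± 0.05 (adjusted p = 0.643), lower at 6 of 6 times.

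*Slc16a3* had 78.5, 90.7 and 107 FPKM in WT control mice and 62.9, 78.1 and 94.4 FPKM in WT KPC mice. All 4 control mice at CT22 and CT26 were above every KPC mouse. KPC mice were lower by 12.2% (log2 fold change -0.19 ± 0.05 SE, adjusted p = 0.0348) at 5 of 6 times, and the change in FoxP1SkmKO mice was 0.03 ± 0.05 (adjusted p = 0.843). *Pdhb* had 59.8, 71.7 and 84.6 FPKM in WT control mice and 57.3, 66.8 and 72.9 FPKM in WT KPC mice, lower by 8.29% (log2 fold change -0.12 ± 0.03 SE, adjusted p = 0.0483) and at all 6 times. In FoxP1SkmKO mice the log2 fold change of *Pdhb* was -0.05 ± 0.03 (adjusted p = 0.602).

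None of the 33 members was called for the KPC effect in FoxP1SkmKO mice, where edgeR called 0.428% of all genes. There 2 members had an unadjusted p under 0.05, and DESeq2 called 1 member and 137 genes in all. The difference of the KPC effect between genotypes was called for 0 of 15637 genes (0%; 1020 genes and 4 members at an unadjusted p under 0.05, and 0 genes with DESeq2), so the calls in WT were not shown to be absent in FoxP1SkmKO. For *Slc16a3* that difference was 0.22 ± 0.07 (95% interval 0.08 to 0.36, adjusted p = 0.764), for *Pgam2* 0.15 ± 0.07 (0.01 to 0.30, adjusted p = 0.764) and for *Pdhb* 0.08 ± 0.05 (-0.02 to 0.17, adjusted p = 0.832).

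**Figure D2:**
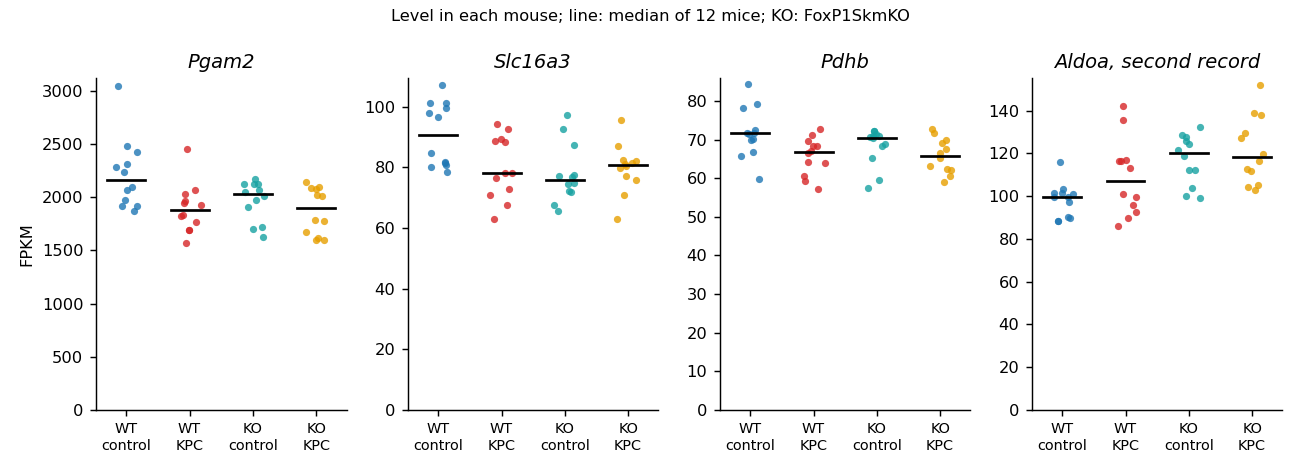
FPKM of the 4 records called in an averaged comparison, with 1 point per mouse, the median of 12 mice as a line, and a vertical axis from 0. The median of the WT control mice is the highest for *Pgam2*, *Slc16a3* and *Pdhb* and the lowest for the second *Aldoa* record, and every pair of groups overlaps.

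The 3 calls depended on which libraries were used. Left out singly, 6 of the 48 libraries ended the call of *Pgam2*, 12 that of *Slc16a3* and 20 that of *Pdhb*, with every change still negative. Leaving out CT26 or CT22 ended all 3, and leaving out CT30 ended 2 of them. Without the 7 libraries with slow-fiber markers over 1.5 times the median (5 of WT mice, 2 of FoxP1SkmKO mice), the changes were -0.20 for *Pgam2*, -0.21 for *Slc16a3* and -0.12 for *Pdhb*, with adjusted p of 0.143, 0.105 and 0.236, and 45 genes in place of 280 were called in all. With replicate number as a block, *Pdhb* had an adjusted p of 0.0546. Of markers that moved with the WT comparison, 2 of 5 fibroblast markers were called lower in KPC mice (summed 27.8, 53.2 and 81.6 FPKM in control and 18.3, 33.2 and 72.9 FPKM in KPC mice), both tested neutrophil markers were called higher, from a median sum of 0.361 to one of 1.71 FPKM, and 1 of 6 endothelial markers was called lower. No marker of these lists was at 0 in every library, and their part in the result was not tested.

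The remaining members did not pass the test in either genotype, and most of their intervals were narrow. Leaving out *Gapdh*, averaged changes with KPC ran from -0.22 to 0.31 in WT and from -0.08 to 0.21 in FoxP1SkmKO mice on the log2 scale, and 30 of 32 intervals in WT and all 32 in FoxP1SkmKO lay within 0.5 of no change. *Slc2a4* had 168, 196 and 211 FPKM in WT control and 170, 188 and 209 FPKM in WT KPC mice. Its change was -0.02 (95% interval -0.08 to 0.05, adjusted p = 0.854) in WT and 0.04 (-0.02 to 0.11, adjusted p = 0.629) in FoxP1SkmKO mice. *Tbc1d4* (AS160), the Rab GTPase-activating protein that holds GLUT4 inside the cell, had the largest positive estimate after the *Gapdh* record was set aside, 0.31 in WT (adjusted p = 0.146) and 0.21 in FoxP1SkmKO (adjusted p = 0.444). Of 40 further genes of the pathway, such as PDH kinases and phosphatases, other glucose carriers and gluconeogenic enzymes, 36 were tested. With edgeR 0 were called in either genotype, against 1.79% of all genes in WT and 0.428% in FoxP1SkmKO. At an unadjusted p under 0.05 there were 10 and 5, which are not set against all genes here and are a description only.

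**Figure D3:**
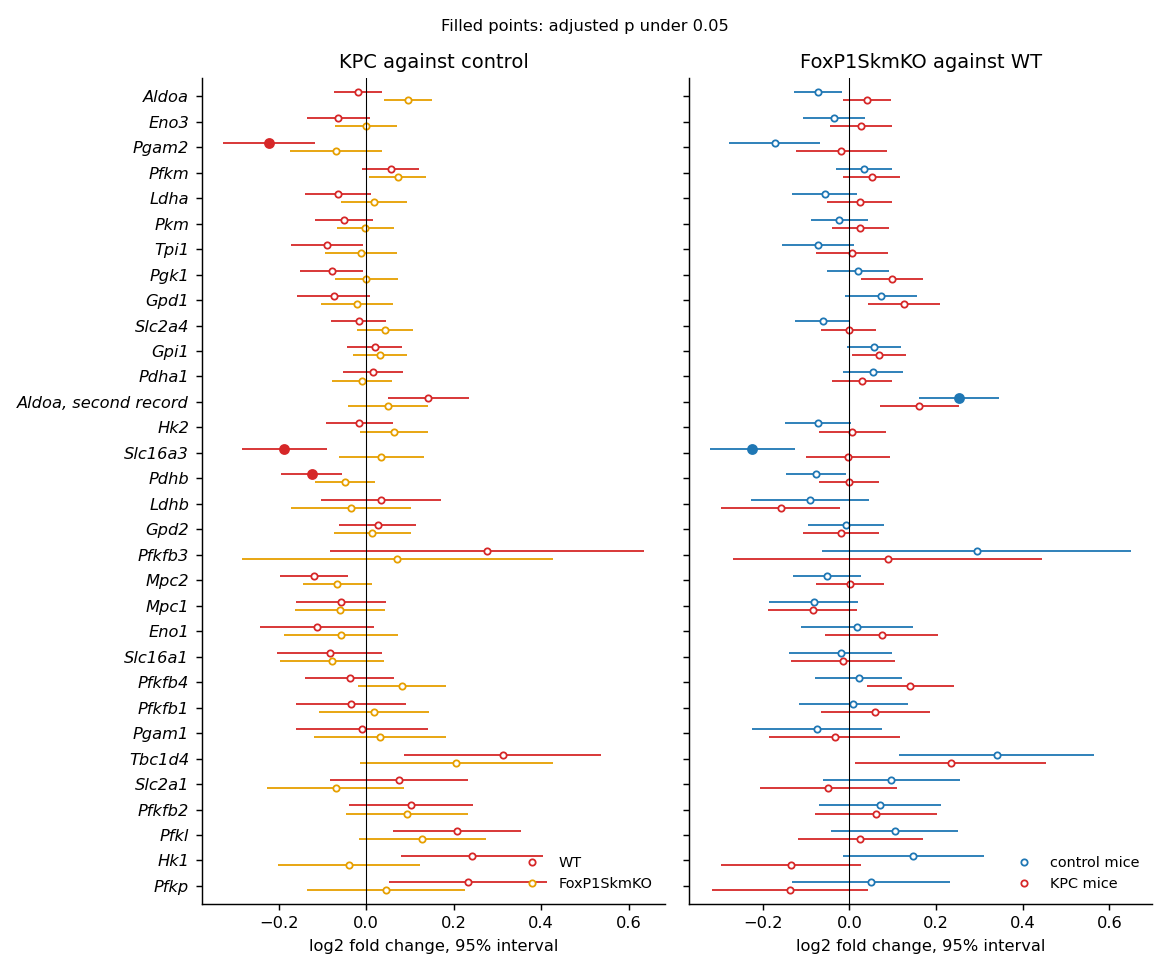
Log2 fold change with its 95% interval for each tested member but *Gapdh*, averaged over 6 times, for KPC against control mice (left) and FoxP1SkmKO against WT mice (right). Filled points have an adjusted p under 0.05: *Pgam2*, *Slc16a3* and *Pdhb* for KPC in WT, and the second *Aldoa* record and *Slc16a3* for the genotype in control mice.

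Taken one circadian time after another, the tumor effect on these genes was called at a single time in a single genotype, CT26 in WT mice. There 5 of the 33 members were called (15.2%, against 7.17% of all genes, 2.53% lower and 4.64% higher): the main *Aldoa* record, *Pgam2*, *Pdhb* and the pyruvate carrier subunit *Mpc2* were lower in KPC mice, and the second *Aldoa* record was higher. Both the members' count and that of all genes rested on 1 mouse: without the first of the 2 WT control mice at CT26, 0 members and 86 genes (0.524% of those tested) were called in place of 1121. Without the other control mouse 5 members and 1362 genes were called, and without the first or the second KPC mouse 2 members each and 463 or 510 genes. At the other 11 combinations of time and genotype 0 members were called, with 0 to 6 genes called in all (0% to 0.0384%, being 0.0064% in WT at CT30, 0.0256% in WT at CT38, 0.0192%, 0.0384% and 0.0064% in FoxP1SkmKO at CT18, CT26 and CT38, and 0% elsewhere).

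For 3 of the 5 records the 2 WT control mice at CT26 had the highest levels of all. *Aldoa* had 6740 and 6171 FPKM in them, above every one of the other 46 mice, and 5308 and 5389 FPKM in the KPC mice at CT26 (log2 fold change -0.28 ± 0.07 SE, adjusted p = 0.00838). *Pgam2* had 3046 and 2488 FPKM in the controls, again above all other mice, and 2036 and 2073 FPKM in KPC mice (-0.43 ± 0.13, adjusted p = 0.0301). *Pdhb* had 84.6 and 79.2 FPKM against 64.3 and 67.0 FPKM (-0.32 ± 0.08, adjusted p = 0.0138).

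*Mpc2* was 30.1 and 29.0 FPKM in those controls against 23.3 and 21.9 FPKM (-0.39 ± 0.09, adjusted p = 0.00843), although WT KPC mice reached 29.9 FPKM at CT38. The second *Aldoa* record went the other way, with 88.2 and 88.4 FPKM against 116 and 117 FPKM (0.40 ± 0.11, adjusted p = 0.0249). In FoxP1SkmKO mice at CT26 the changes were 0.05 for *Aldoa*, -0.21 for *Pgam2*, -0.09 for *Pdhb*, -0.29 for *Mpc2* and 0.26 for the second *Aldoa* record, none called. The difference between genotypes at CT26 was called for 0 members (0.345% of all genes), *Aldoa* being nearest at 0.33 ± 0.09 (adjusted p = 0.117).

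**Figure D4:**
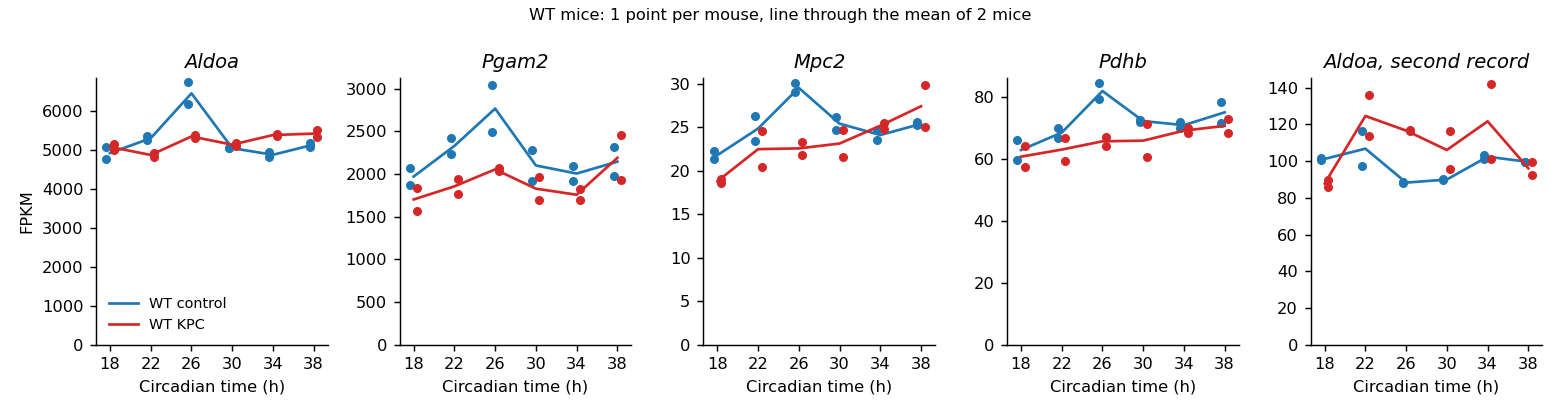
FPKM by circadian time (h) in WT control and WT KPC mice for the 5 records called at CT26, with 1 point per mouse and a line through the mean of 2 mice. At CT26 the controls rise above the KPC mice for *Aldoa*, *Pgam2*, *Mpc2* and *Pdhb* and fall under them for the second *Aldoa* record.

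Other RNAs also differed in those 2 WT control mice. Fast-fiber markers summed to 82592 FPKM, the highest of the 48 libraries, and 74170 FPKM, against 71516 and 72716 FPKM in the KPC mice at CT26, and 2 of 10 fast-fiber markers were called lower in KPC mice and 1 higher. Erythroid markers summed to 330 and 246 FPKM against 161 and 177 FPKM, and fibroblast markers to 42.6 and 51.4 against 38.1 and 30.7 FPKM. Slow-fiber markers (30.6 and 22.6 against 42.8 and 28.1 FPKM) and adipocyte markers (3.99 and 8.39 against 0.531 and 4.32 FPKM) overlapped. No erythroid, fibroblast, slow-fiber or adipocyte marker was called at CT26. The first KPC mouse is among the libraries with high slow-fiber markers. Without the first of the 2 control mice, the changes were -0.23 for *Aldoa*, -0.30 for *Pgam2*, -0.29 for *Pdhb*, -0.39 for *Mpc2* and 0.38 for the second *Aldoa* record, with adjusted p between 0.146 and 0.456. Whether these RNAs have a part in the result was not tested. The test over all times of whether the KPC effect depends on the hour called 0 members in either genotype (0.883% of all genes in WT and 0% in FoxP1SkmKO), with *Aldoa* in WT at an adjusted p of 0.0673. At an unadjusted p under 0.05 there were 7 and 4 members. DESeq2 gave 4 member calls, against 380 genes called in WT and 65 in FoxP1SkmKO.

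Between genotypes, 2 members differed in control mice, 6.06% of those tested against 3.44% of all genes (1.86% higher and 1.58% lower). *Slc16a3* was lower in FoxP1SkmKO controls, with 65.5, 75.9 and 97.3 FPKM against 78.5, 90.7 and 107 FPKM in WT, a decrease of 14.4% (log2 fold change -0.22 ± 0.05 SE, adjusted p = 0.00547). This comparison shares its WT control mice with the KPC comparison in WT, so the 2 decreases of *Slc16a3* are not independent. The second *Aldoa* record was higher, with 99.3, 120 and 132 FPKM against 88.2, 99.6 and 116 FPKM (0.25 ± 0.05, adjusted p = 0.00120), and the main record had -0.07 (adjusted p = 0.141). *Pgam2* missed the threshold at -0.17 ± 0.05 (adjusted p = 0.0557).

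Both calls of genotype held under the 13 alternatives that give a test and on leaving out each of the 48 libraries in turn. In the same comparison 2 of 10 fast-fiber and 2 of 8 slow-fiber markers were called lower in FoxP1SkmKO, the slow-fiber sum having a median of 23.4 FPKM against 32.0 FPKM in WT, and their part was not tested. In KPC mice 0 members differed by genotype (0.32% of all genes; 7 members at an unadjusted p under 0.05, and 0 with DESeq2), with *Slc16a3* at -0.00 ± 0.05 and the second *Aldoa* record at 0.16 (adjusted p = 0.107).

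Of the 36 further pathway genes, 2 were called for genotype in control mice, where 3.44% of all genes were called (1.86% higher and 1.58% lower). *Pdk4*, a kinase that switches pyruvate dehydrogenase off in fasting, was 1.70-fold higher in FoxP1SkmKO (40.3, 54.0 and 104 FPKM in WT, 60.9, 83.4 and 216 FPKM in FoxP1SkmKO; adjusted p = 0.0184). *Fbp2*, the muscle fructose bisphosphatase, which opposes phosphofructokinase, was lower by 19.8% (18.2, 21.6 and 25.5 FPKM against 10.7, 17.7 and 21.5 FPKM; adjusted p = 0.0232). Neither was called in KPC mice. These 2 calls share their WT control mice with the KPC comparison in WT, in which neither gene was called. In WT KPC mice *Pdk4* had 48.5, 77.1 and 157 FPKM and *Fbp2* 14.7, 21.4 and 32.7 FPKM. Whether these 2 calls hold under the alternatives or with single libraries left out was not examined.

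The time of day was the third axis of the design, and *Hk2* and *Pfkfb3* had the clearest rhythms. A 24 h sinusoid was fitted to the FPKM of the 12 mice of each group, and a gene was called rhythmic at an unadjusted p under 0.01. By this rule 3 of 34 members were rhythmic in WT control mice (8.82%, against 4.92% of all genes), 5 in WT KPC mice (14.7% against 4.22%), 4 in FoxP1SkmKO control mice (11.8% against 4.07%) and 5 in FoxP1SkmKO KPC mice (14.7% against 2.63%). The shares of all genes are over 27209 to 28711 genes with varying FPKM in a group. Of all genes 15637, and of the 34 members 33, passed the filter on low counts, so the shares have unlike bases. *Hk2* was the one member called in all 4 groups.

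*Hk2* cycled with a highest-to-lowest ratio of 1.40 to 1.46 between the time means of a group. In WT control mice its 2 values were 70.2 and 72.4 FPKM at CT26 and 103 and 106 FPKM at CT34, and in WT KPC mice 71.9 and 71.5 FPKM at CT22 and 99.2 and 101 FPKM at CT38. In fits with n = 12 mice each, the amplitude was 17.4 ± 2.38 FPKM (SE) with a peak at CT36.9 in WT control (p = 0.000167), 15.1 ± 1.15 at CT35.6 in WT KPC (p = 1.36e-06), 13.4 ± 2.47 at CT34.9 in FoxP1SkmKO control (p = 0.00142) and 13.7 ± 2.42 at CT35.6 in FoxP1SkmKO KPC mice (p = 0.00112). *Hk2* thus peaked near the end of the subjective day, when a mouse nears its active phase, in every group, and it was the sole member past an adjusted p of 0.05, in the 2 WT groups (0.0424 and 0.00932, against 0.114 and 0.176 in FoxP1SkmKO control and KPC mice). Of all genes 0.551%, 0.475%, 0.414% and 0.116% passed that threshold in the 4 groups, in the same order. Its rhythm in KPC mice set against that in controls gave p = 0.130 in WT and 0.788 in FoxP1SkmKO (n = 24 in each test).

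*Pfkfb3*, the PFKFB enzyme with the strongest kinase activity, had the largest swing of the members other than *Gapdh* and *Aldoc*. The time means of *Gapdh* spanned 16.9-fold in WT control and 7.63-fold in FoxP1SkmKO KPC mice, with sinusoid p of 0.433 and 0.563 (n = 12 each), and *Aldoc* was near 0. Its time means ran from 6.41 FPKM at CT18 to 57.6 FPKM at CT30 in WT control mice, an 8.99-fold range, from 4.31 FPKM at CT38 to 50.6 FPKM at CT26 in WT KPC mice (11.8-fold), from 8.14 FPKM at CT38 to 61.3 FPKM at CT30 in FoxP1SkmKO control mice (7.53-fold) and from 8.76 FPKM at CT38 to 80.1 FPKM at CT30 in FoxP1SkmKO KPC mice (9.14-fold). The highest mouse at CT18 and CT38 had 12.2 FPKM and the lowest at CT30 had 35.6 FPKM, so these hours did not overlap in any group. Mice of one group also differed, with 77.9 and 37.3 FPKM in the 2 WT controls at CT30 and 34.3 and 67.0 FPKM in the 2 WT KPC mice at CT26.

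The fitted peaks of *Pfkfb3* lay between CT28.4 and CT29.8, shortly before the middle of the subjective day (CT30, noon), with amplitudes of 20.9 to 30.4 FPKM. The rhythm was called in 3 groups (n = 12 each, p = 0.00281 in WT KPC, 0.000999 in FoxP1SkmKO control and 0.00392 in FoxP1SkmKO KPC mice) and had p = 0.0192 in WT controls. For KPC against control rhythm p was 0.527 in WT and 0.673 in FoxP1SkmKO (n = 24 in each test). Its averaged changes had wide intervals, 0.28 (-0.08 to 0.64) for KPC in WT and 0.29 (-0.06 to 0.65) for genotype in control mice.

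**Figure D5:**
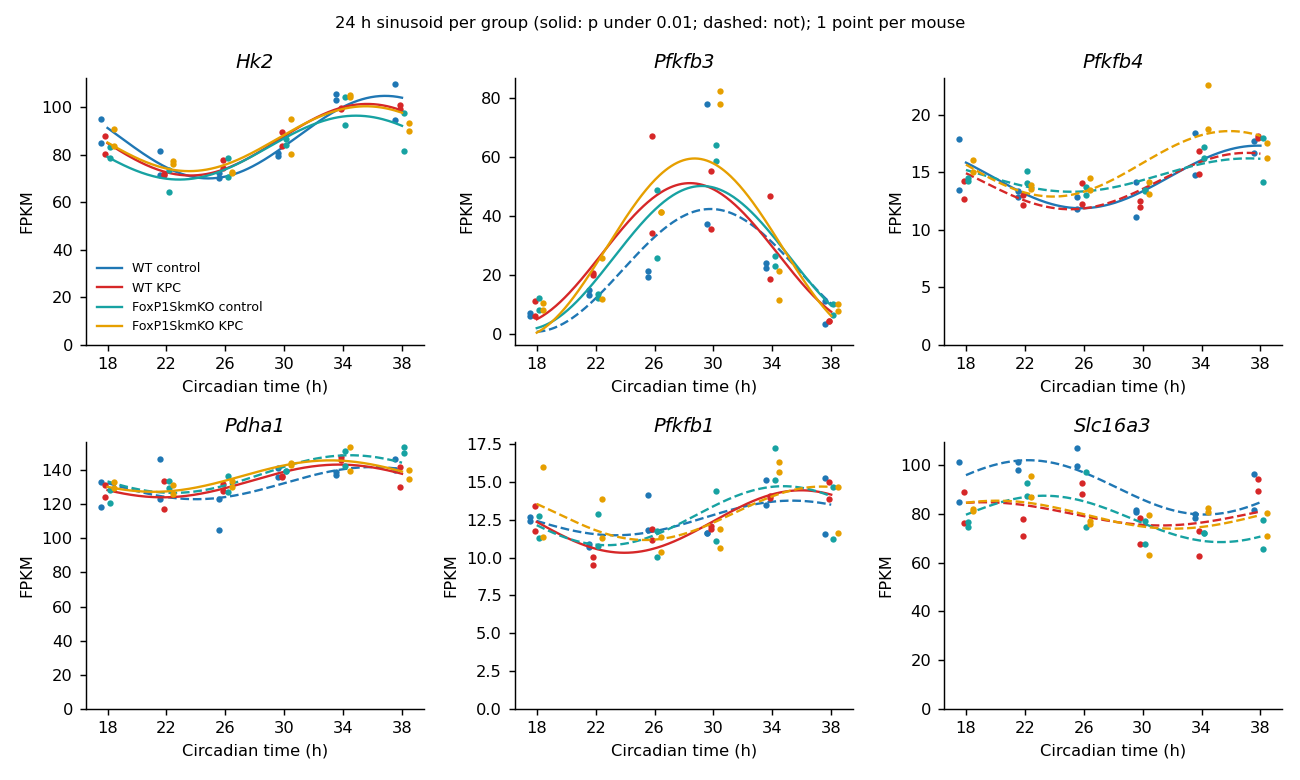
FPKM by circadian time (h) of 6 members, with 1 point per mouse and the fitted 24 h sinusoid of each group, solid where its p was under 0.01 and dashed elsewhere. *Hk2* peaks near CT36 and *Pfkfb3* near CT29 in all 4 groups, while none of the other 4 genes has a solid curve in more than 2 groups.

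The other rhythm calls held in fewer groups than those of *Hk2* and *Pfkfb3*. *Pdha1*, the catalytic alpha subunit of pyruvate dehydrogenase, had an amplitude of 9.60 FPKM (7.18% of its mean) with a peak at CT33.7 in WT KPC mice (n = 12, p = 0.00843) and 9.23 FPKM at CT33.1 in FoxP1SkmKO KPC mice (p = 0.00161), and in the control groups the p was 0.192 and 0.0143. *Pfkfb4* was called in WT control mice (2.72 FPKM, 18.7% of its mean, peak at CT37.8, n = 12, p = 0.00924) and had p = 0.0108 in WT KPC mice. Left out singly, 11 of the 12 mice ended the call of *Pfkfb4* and 10 of 12 that of *Pdha1* in WT KPC mice, whereas that of *Pdha1* in FoxP1SkmKO KPC mice held in each such fit. *Pfkfb1*, a PFKFB form found in liver and muscle, was called in WT KPC mice (2.07 FPKM, 16.7%, CT36.0, n = 12, p = 0.000565).

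Single groups also gave calls for *Slc2a1* (WT control, peak at CT38.5, n = 12, p = 0.00931), *Eno1* (WT KPC, CT20.1, p = 0.00417), *Hk1* (FoxP1SkmKO control, CT24.4, p = 0.00968) and *Gpd1*, the cytosolic enzyme of the glycerol phosphate shuttle (FoxP1SkmKO KPC, CT30.5, p = 0.00477). These 4 genes had p above 0.05 in the other 3 groups. The call was ended by leaving out 1 mouse in 9 of 12 such fits for *Slc2a1*, 5 for *Eno1*, 10 for *Hk1* and 5 for *Gpd1*. The second *Aldoa* record was called in both FoxP1SkmKO groups, with a peak at CT19.7 in control (n = 12, p = 0.000818) and at CT28.3 in KPC mice (p = 0.00221).

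For that record a change of rhythm with KPC had the lowest p of the members, 1.09e-05 in FoxP1SkmKO mice (n = 24), with an adjusted p of 0.341. In the controls its 4 values at CT18 and CT22 ran from 125 to 132 FPKM and its 4 values at CT30 and CT34 from 99.3 to 112 FPKM. In the KPC mice the 4 values at CT26 and CT30 ran from 130 to 152 FPKM and those at CT18 and CT38 from 103 to 120 FPKM, so the high and low hours did not coincide. By the adjusted p, 0 members and 0 genes in all (0%) differed in rhythm in either genotype (3 members in each, and 5.07% and 5.09% of all genes, at an unadjusted p under 0.05).

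A single sinusoid fitted to all 48 mice, with a level for each group, drew on more mice. It called 11 of 34 members at an adjusted p under 0.05 (32.4%, against 12.9% of all genes). That 12.9% is over 33218 genes with varying FPKM, while 15637 genes, and 33 of the 34 members, passed the filter on low counts. The shares thus have unlike bases. The fit was chosen after the values of the separate groups were seen. Besides *Hk2* (amplitude 14.6 ± 1.13 FPKM, 17% of its mean, peak at CT35.8, adjusted p = 1.83e-12) and *Pfkfb3* (24.7 ± 2.63 FPKM, 96.0%, CT29.0, adjusted p = 9.21e-09), these were *Pfkfb4* (15.7%, CT37.0), *Pdha1* (7%, CT34.3), *Pfkfb1* (13.2%, CT35.9), *Pfkp* (19.5%, CT22.1), *Slc16a3* (8.76%, CT21.7), *Mpc2* (8.75%, CT32.2), *Pdhb* (5.06%, CT31.7), *Slc2a1* (10.2%, CT38.8) and *Pfkfb2* (7.12%, CT33.9).

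The 4 PFKFB genes were thus all among the 11. Of the 11 peaks, 8 fell between CT31.7 and CT38.8, from the later subjective day to the early subjective night, and 3 elsewhere, those of *Pfkfb3*, *Pfkp* and *Slc16a3*. These limits are the earliest and latest of the 8 peaks themselves. Peaks of all rhythmic genes were not set beside them, so the count is a description only. The abundant enzymes from *Gpi1* to *Pkm* were not among the called genes. Neither were *Slc2a4*, *Ldha* and *Ldhb*.

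Among 38 further pathway genes with a value, the same fit called 13 (34.2%, against 12.9% of all 33218 genes with varying FPKM). Of the further genes 36, and of all genes 15637, passed the filter on low counts, so these shares also have unlike bases. *Tbc1d1*, a Rab GTPase-activating protein related to *Tbc1d4*, had an amplitude of 31.4% of its mean with a peak at CT40.7 (adjusted p = 5.17e-12), and it was called in each of the 4 groups on its own. The pyruvate dehydrogenase phosphatases *Pdp1* (20.2%, CT32.7) and *Pdp2* (26.6%, CT34.5) and the complex's other subunits *Dld* (7.15%, CT34.4) and *Dlat* (4.53%, CT33.6) had peaks close to each other. Groups of 12 gave 4, 2, 4 and 3 calls among the further genes at p under 0.01 (WT control, WT KPC, FoxP1SkmKO control and FoxP1SkmKO KPC). These were 10.8%, 5.26%, 10.8% and 8.11% of 37, 38, 37 and 37 genes with varying FPKM. Of all genes with varying FPKM, 4.92%, 4.22%, 4.07% and 2.63% were called, again on unlike bases.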

How the data were processed

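RNA-seq of mouse tibialis anterior was deposited as 1 FPKM table and tables of comparisons with raw counts and counts divided by size factors. Per the paper's methods, the authors aligned reads to mm39 with STAR and counted them per gene with HTSeq (the deposited counts). The submitters' processing notes name HISAT2 2.0.5 and DESeq2 1.20.0 instead, and which aligner made these files is not settled. The authors computed FPKM from those counts, gene length and depth, and the normalized values (signal) are the deposited counts over a size factor. Columns with the authors' own fold changes and p-values were not used. A total of 28541 counts missing from a comparison table, none above 1, were computed back from FPKM. Whether counting used strand is not given in the sources used here, so reads of overlapping and antisense genes cannot be told apart.

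Counts of 48 libraries were filtered with filterByExpr (15637 genes kept), scaled by TMM and fitted with edgeR 4.0.16 (quasi-likelihood test, limma 3.58.1, R 4.3.3), with 1 level for each of 24 groups and 24 residual degrees of freedom. Contrasts were averaged over 6 circadian times with equal weights or taken at single times. All adjusted p are Benjamini-Hochberg over all genes, called under 0.05, and those of fold changes come from edgeR. A count at an unadjusted p under 0.05 with no share of all genes beside it is a description only. Rhythm was an F test of a 24 h sinusoid on FPKM in Python 3.11.15 (numpy 2.4.6, scipy 1.17.1, pandas 2.3.3), with 9 residual degrees of freedom in a group and called at p under 0.01, and 18 for the difference between control and KPC mice. Alternatives were DESeq2 1.42.0, its size factors, no filter, a gene length trend removed, log2 scales, replicate blocks, and times or libraries left out. The averaged KPC contrast in WT, the sinusoid of a group and the difference in rhythm were checked on simulated data. The other contrasts and the sinusoid over 48 mice were not.

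The 2 mice of every group differed beyond sampling noise (chi-square per degree of freedom 4.79 to 15.8). Replicate numbers did not pair mice: deviations of same-numbered mice correlated over 0.1 in 1 of 12 pairs of groups (-0.0992 to 0.101). Members and lists were chosen by gene name, with earlier results of these data known. Any member could be named, with full values for those called in a test or a rhythm and for *Slc2a4*, *Pfkfb3* and *Pdhb*. Marker lists of 12 cell types or tissues were summed in FPKM. Depth is high for most members, and the error is set by the mice.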

Additional observations from a re-analysis of the deposited data

Results flagged for a closer look

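Of the members and further pathway genes, 1 had a tumor effect that differed between the genotypes in a test of the difference itself. That test was run at each of the 6 times and averaged over them. It called 54 of 15637 genes (0.345%) at CT26, 1 gene each (0.0064%) at CT22 and CT34, and 0 otherwise. *Pdpr*, the regulatory subunit of pyruvate dehydrogenase phosphatase, had 9.59 and 18.3 FPKM in WT control mice at CT26, the lowest values of all 48 mice, and 32.8 and 34.6 FPKM in WT KPC mice. In FoxP1SkmKO mice it had 30.6 and 32.3 FPKM in control and 30.8 and 29.4 FPKM in KPC mice. The difference of the KPC effect at CT26, FoxP1SkmKO minus WT, was -1.34 ± 0.25 (log2, SE, edgeR adjusted p = 0.0153). Both WT control mice at CT26 are also the highest for *Aldoa* and *Pgam2*. The difference for *Pdpr* was not refitted with single libraries left out. Groups of 2 and 12 mice are outside the sizes for which single outlying mice were looked for.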

How the results depend on the processing

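The members called for KPC in WT (3) became 5 with no filter on low counts, 0 without CT22, 0 without CT26, 1 without CT30 and 0 without the slow-fiber libraries. For KPC in FoxP1SkmKO (0) DESeq2 gave 1 and no filter 3, for genotype in control mice (2) no filter gave 6 and leaving out CT34 gave 4, for genotype in KPC mice (0) no filter gave 5 and leaving out CT22 gave 1, and for the difference between genotypes (0) no filter gave 2. Calls at single times (5) became 3 with edgeR on 4 libraries and 27 with no filter, and those over times (0) became 4 with DESeq2 and 9 with no filter. With no filter, calls over all genes rose from 280 to 794 for KPC in WT, from 67 to 527 in FoxP1SkmKO, from 538 to 933 for genotype in control and from 50 to 470 in KPC mice. They rose from 0 to 104 for the difference between genotypes, and over times from 138 to 806 in WT and from 0 to 905 in FoxP1SkmKO. At single times all-gene calls ran from 0 to 1121 with the filter, from 87 to 1130 without it and from 0 to 345 with edgeR on 4 libraries. DESeq2 called 380 genes over times in WT and 65 in FoxP1SkmKO. Rhythm calls (17 in all) became 2 at an adjusted p under 0.05: 1 in WT control, 1 in WT KPC, 0 in FoxP1SkmKO control and 0 in FoxP1SkmKO KPC mice. The cause was not tested.

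Replicates share only a number. With replicate as a block, *Pdhb* for KPC in WT was -0.12 with an adjusted p of 0.0546, rhythm calls in WT control fell from 3 to 1, and all-gene calls for KPC in WT were 271.

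Leaving out each library in turn, which let 16321 to 16424 genes pass the filter, gave 0 to 4 members for KPC in WT, 0 to 1 in FoxP1SkmKO, 2 to 4 for genotype in control and 0 to 1 in KPC mice, 0 to 0 for the difference between genotypes, 0 to 6 at single times, 0 to 1 over times, 0 to 1 for the difference in rhythm and 14 to 19 rhythm calls (1 to 5 in WT control, 2 to 6 in WT KPC, 3 to 5 in FoxP1SkmKO control, 3 to 7 in FoxP1SkmKO KPC).

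Signs were compared for the called fold changes and for the averaged effects of *Slc2a4* and *Pfkfb3*, and not for other uncalled members. No called fold change turned its sign. Signs turned for an effect of *Slc2a4* near 0 and for *Pfkfb3*, whose intervals are wide. The genotype effect on *Slc2a4* in KPC mice (-0.00) was 1.2e-05 with DESeq2, 2.9e-05 with its size factors, 0.0076 with replicates 2 left out, 0.0173 without CT26, 0.0302 without CT38, 0.0212 without slow-fiber and 0.0073 without liver libraries, and -0.0157 to 0.0176 over single libraries. *Pfkfb3* for KPC in WT was -0.22 with replicates 2 left out. For KPC in FoxP1SkmKO it was -0.0558 with replicates 2 left out, -0.0205 without CT22, -0.0199 without slow-fiber libraries and -0.0428 to 0.16 over single libraries. For genotype in KPC mice it was -0.0757 with replicates 1 left out, -0.0593 without CT30, -0.0971 without CT38, -0.0949 without slow-fiber libraries and -0.0225 to 0.23 over single libraries.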
